A study of Mus musculus with 10 samples.

Results

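Mouse crypts in which Notch signalling was blocked were compared with sorted intestinal stem cells, gene by gene. The comparison takes 4 of the 10 arrays of the series: 2 arrays of crypt secretory progenitors from mice treated with dibenzazepine (DBZ) and 2 arrays of stem cells sorted for the green fluorescent protein of Lgr5-eGFP-Cre mice. Its members are all 12393 genes that have a probe set naming a single gene symbol, each read from its brightest probe set by the mean of the 10 arrays. The arrays were chosen by their titles alone, so no measured value entered the choice.

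The series measured total RNA of intestinal epithelium from C57BL/6 mice on Affymetrix 430A 2.0 arrays, in 5 groups of 2 arrays. Beside the DBZ crypts and the stem cells, it holds crypts of mice in which Rbpj was deleted, and crypts (enterocyte progenitors, Ent-Pro) and villi (ENT) of Atoh1-/- mice, which make no secretory cells. Crypt epithelium was released in 5 mM EDTA over 50 min after the villi had been taken off by hand, and villus cells in 5 mM EDTA over 25 min. Flow sorting is described for the stem cells, and the crypt groups are described as enriched by the treatment or the genotype, so the DBZ arrays hold whole crypt epithelium rather than a sorted cell type. The Rbpj-deleted group was enriched by that deletion. The dose and duration of DBZ, the driver of the Rbpj deletion, and the number of mice behind an array are not given in the sources used here. Whether different mice stand behind replicate arrays is likewise unknown here, and the p-values below then measure the spread between arrays, which may be technical.

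Notch is a receptor that is cut by gamma-secretase when a ligand on a neighbouring cell binds it. The freed part enters the nucleus, joins the DNA-binding protein Rbpj and switches on repressors such as Hes1, which hold the gene for Atoh1 down. DBZ blocks gamma-secretase. In the intestine Atoh1 is required for the mucus-making goblet cells, the antimicrobial Paneth cells and the hormone-making enteroendocrine cells, whereas cells with active Notch become absorptive enterocytes. Stem cells at the crypt base carry Lgr5, a receptor that strengthens Wnt signals, and need both Wnt and Notch.

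Values are log2 levels as the authors deposited them, and a difference of 1 is a 2-fold change. A gene was called when limma's test over all 10 arrays gave a Benjamini-Hochberg adjusted p below 0.05. Errors given after ± are standard errors of the difference, with 2 arrays in each group. A level within 1 (log2) of the absent control on both arrays of a group is called near background, and a fold change against it is given as a lower bound.

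DBZ crypts and stem cells differed in 4483 of the 12393 genes, 36.2% of those tested. Of these 1971 were higher in DBZ crypts, 15.9% of all genes, and 2512 were lower, 20.3% of all genes. The median of all genes lay at -0.09. When the arrays were rescaled by cyclic loess, the median of all genes moved to 0.01 and the split to 2393 higher and 1980 lower, so which direction held more genes depended on the scaling. Large changes were more often increases: 290 called genes were at least 4-fold higher and 111 at least 4-fold lower. At 8-fold or more there were 101 higher and 24 lower genes. Against a threshold of a 2-fold change, which asks that the change itself exceed 2-fold, 315 genes passed as higher (2.54%) and 147 as lower (1.19%), 3.73% in all. The 2 arrays of each group did not overlap in 8585 genes, 69.3% of all, which is the background for each statement below that groups did not overlap.

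**Figure D1:**
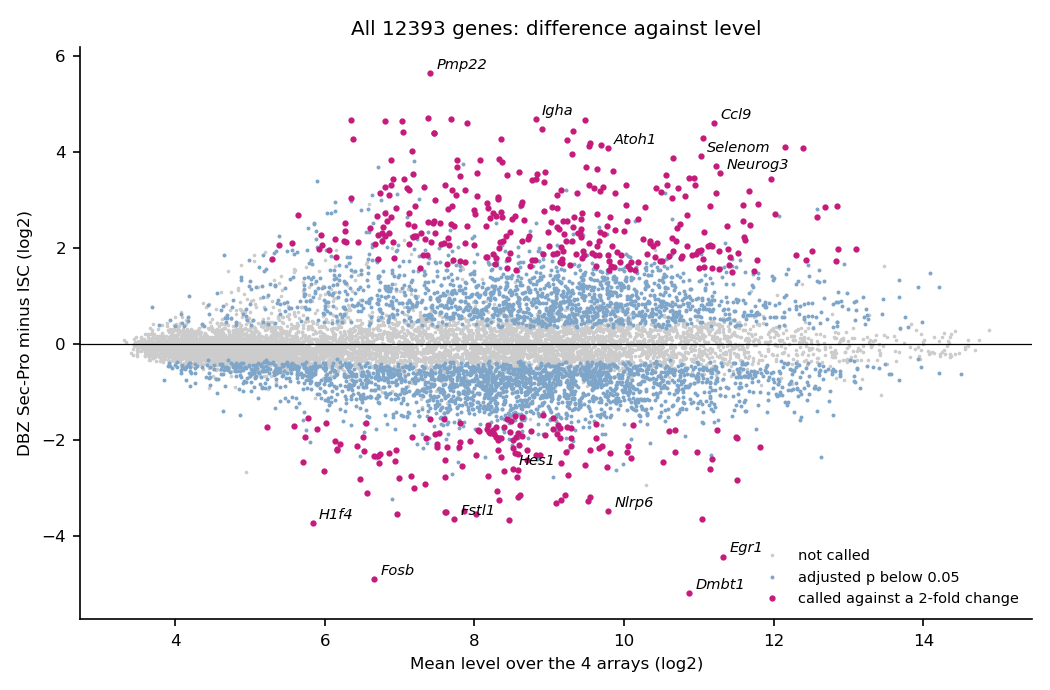
Difference between DBZ crypts and stem cells (log2, vertical axis) against the mean level over the 4 arrays (log2, horizontal axis), with 1 point for each of the 12393 genes. Genes that passed the test against a 2-fold change are shown in magenta and other called genes in blue; the 315 higher genes in magenta occur at low and at high mean levels, and Dmbt1, Fosb and Egr1 lie lowest.

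RNA quality moved with the comparison, and its values belong beside every result that follows. The array carries control probe sets at the 3′ end, in the middle and at the 5′ end of Actb and Gapdh, and RNA that is broken or copied short reads lower towards the 5′ end. In Actb the 3′ probe set exceeded the 5′ one by 1.92 and 2.02 in the stem cells and by 0.58 and 1.01 in the DBZ crypts. In Gapdh the excess was 1.61 and 1.81 in the stem cells and -0.02 and 0.32 in the DBZ crypts. The 2 stem cell arrays were thus apart from the DBZ arrays in both controls. The same gene therefore gave different answers along its length: DBZ crypts minus stem cells was 0.18 at the 3′ end, 0.65 in the middle and 1.35 at the 5′ end of Actb, and -0.03, 0.95 and 1.53 in Gapdh. In Tfrc, the transferrin receptor, it was -1.09, -2.27 and -1.65, lower at each position. With the control difference as a covariate no gene was called in either direction (0 higher and 0 lower by limma, with 890 at an unadjusted p below 0.05), because 97.5% of the variance of the control difference lay between the groups and the median standard error grew from 0.159 to 0.727. Under that covariate 3542 of the 4483 called genes kept their sign. DBZ treatment, sorting, RNA quality and cell type cannot be told apart in this design. The series holds no unsorted crypts of untreated mice with Atoh1 and Rbpj intact. A gene said below to rise or fall was thus higher or lower in DBZ crypts than in sorted stem cells, and an effect of DBZ itself was not tested. A second probe set of the same gene is a partial measurement of the same thing: of 2080 called genes with more than 1 probe set, the dimmest one had the same sign in 1606 (77.2%), was itself called the same way in 873 and the opposite way in 64. Among the 182 such genes that passed the test against a 2-fold change, the sign was the same in 160.

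**Figure D2:**
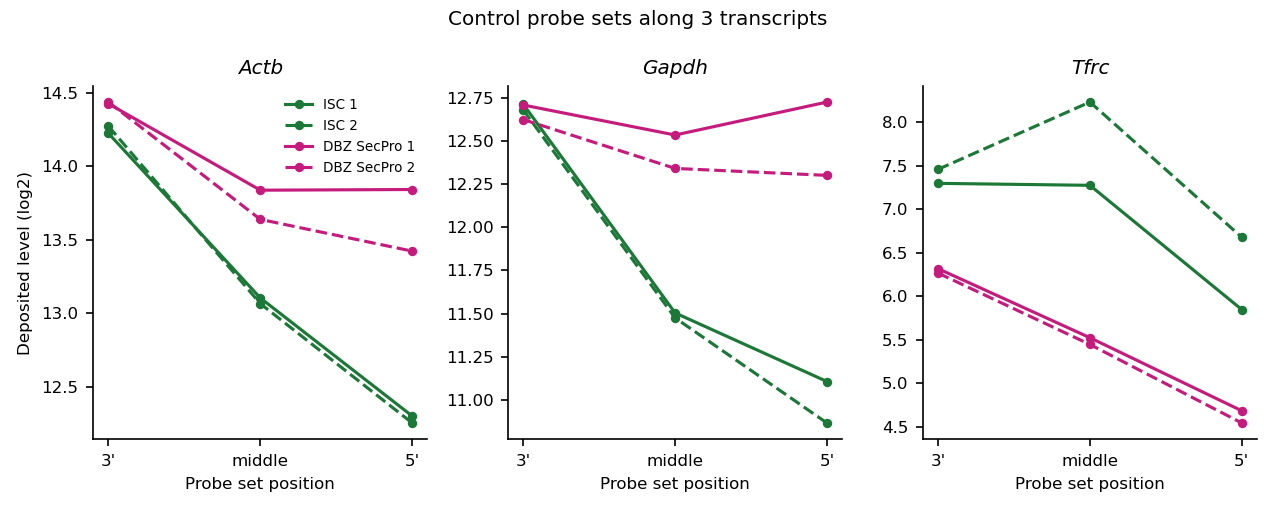
Deposited level (log2) of the control probe sets at the 3′ end, middle and 5′ end of Actb, Gapdh and Tfrc on the 2 stem cell arrays (green) and the 2 DBZ arrays (magenta). At the 3′ end of Gapdh the 4 arrays lie within the same narrow range, and at its 5′ end the stem cells are lower by 1.53; in Tfrc the stem cells are higher at every position.

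Most transcription factors of the secretory lineage rose. Of 25 measured secretory regulators 20 were higher and 3 lower, with a median difference of 1.47 against -0.09 over all genes. Atoh1, the factor that Notch holds down, read 11.80 and 11.85 in DBZ crypts and 7.68 and 7.80 in stem cells, which do not overlap. The difference was 4.08 ± 0.15, a 17.0-fold increase (adjusted p = 2.2e-06). Gfi1, a repressor that acts after Atoh1 and keeps goblet and Paneth cells from the endocrine fate, read 9.40 and 9.92 in DBZ crypts and 5.34 and 5.17 in stem cells and showed the largest change of the list, 4.41 ± 0.18 or 21.2-fold (adjusted p = 4.1e-06). Spdef, which matures goblet and Paneth cells, read 11.10 and 12.10 in DBZ crypts and 7.32 and 7.61 in stem cells and rose by 4.13 ± 0.28 (adjusted p = 2.8e-05). Each of these genes was already above the absent control in the stem cells, and in each the DBZ arrays lay over 3 log2 units above them. Creb3l4, a membrane-bound factor of secretory cells, rose by 3.85 ± 0.18 (adjusted p = 7.0e-06). Bhlha15, also called Mist1, which enlarges the secretory apparatus, rose by 3.32 ± 0.36 (adjusted p = 2.2e-04, and 0.78 by its dimmest probe set), and Xbp1, the activator of genes for the endoplasmic reticulum, by 1.32 ± 0.17 (adjusted p = 5.3e-04). Bhlha15 and Xbp1, like Insm1, Neurod1, Nkx2-2, Cdx2, Mlxipl and Klf4 below, were chosen after their values had been seen.

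The endocrine branch was part of this rise. Neurog3, the factor that commits crypt cells to the endocrine fate, read 13.29 and 12.84 in DBZ crypts and 9.43 and 9.57 in stem cells. The difference was 3.56 ± 0.27 (adjusted p = 4.4e-05). Insm1, which follows Neurog3, rose by 3.80 ± 0.18 (adjusted p = 7.0e-06), Neurod1 by 3.15 ± 0.27 (adjusted p = 7.8e-05) and Nkx2-2 by 2.66 ± 0.27 (adjusted p = 1.6e-04). The members that fell were Mlxipl, a glucose-responsive factor, by 2.45 ± 0.15 (adjusted p = 1.7e-05), Cdx2, the factor of intestinal identity, by 1.22 ± 0.12 (adjusted p = 1.4e-04), and Elf3, an epithelial factor, by 0.70 (named after its values had been seen). By its dimmest probe set Cdx2 differed by -0.36 and was not called (adjusted p = 0.127). Sox9, which marks the crypt base and Paneth cells, read 9.54 and 9.86 in DBZ crypts and 10.26 and 10.25 in stem cells and was not called (adjusted p = 0.0712), although it was called without either Rbpj-deleted array.

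Against the stem cells, the Rbpj-deleted crypts had 11 of the 25 regulators higher and 5 lower (17.7% of all genes higher and 29.4% lower in that comparison, 47.1% in all), and Ent-Pro had 1 higher and 16 lower (12.1% and 13.5%). These comparisons share the stem cell arrays with the one described here, so DBZ crypts were also set against each crypt group directly. DBZ crypts exceeded the Rbpj-deleted crypts in 17 of the 25 and were lower in 0 (9.34% of all genes were higher and 7.08% lower). Atoh1 read 10.40 and 10.78 after Rbpj deletion, below the DBZ arrays by 1.23 ± 0.15 (adjusted p = 0.00321). Bhlha15 differed between the same groups by 2.60 ± 0.36 (adjusted p = 0.00494). That comparison of all genes rested partly on 1 array: its 2036 calls became 363 without DBZ array 2, and 1273 and 1018 without DBZ array 1 and Rbpj-deleted array 1. DBZ crypts exceeded Ent-Pro, which lack Atoh1, in 20 of the 25 regulators and were lower in 2 (8.84% and 9.77% of all genes). The 2307 calls of that comparison became 1131 without DBZ array 2, and 1045 and 1075 without Ent-Pro array 1 and 2.

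**Figure D3:**
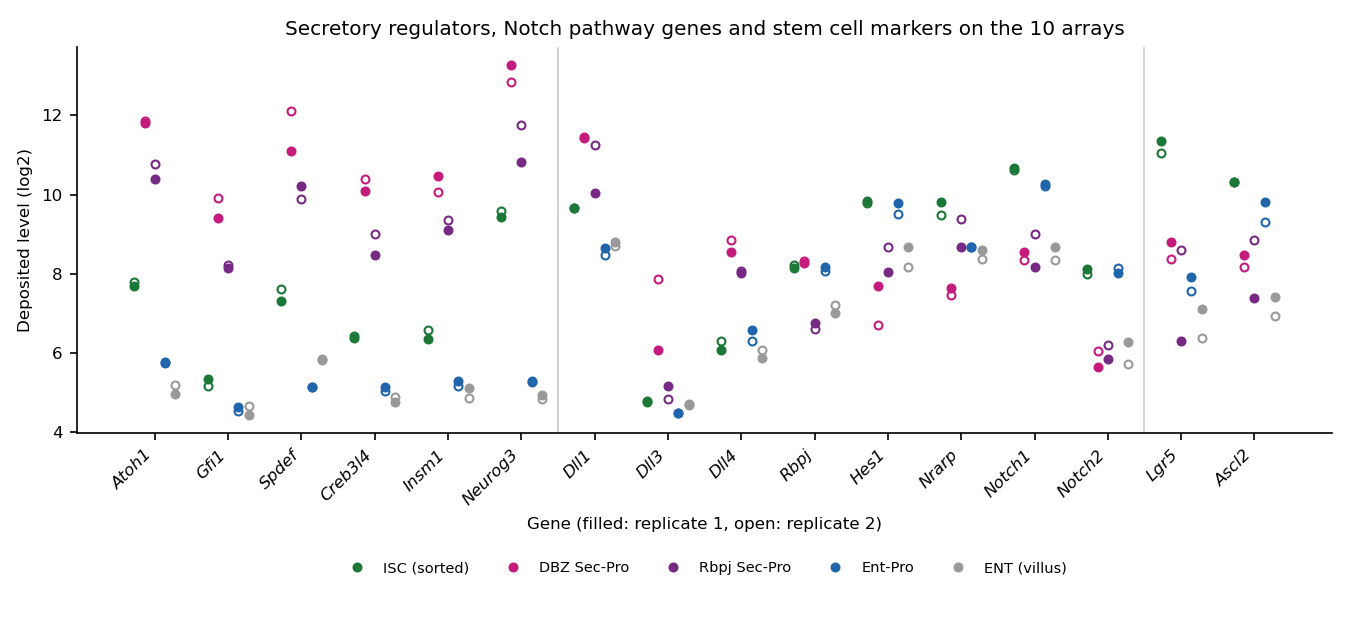
Deposited level (log2, vertical axis) of secretory regulators (left), Notch pathway genes (middle) and stem cell markers (right) on each of the 10 arrays, coloured by group, with replicate 1 filled and replicate 2 open. DBZ crypts are the highest group for Atoh1, Gfi1, Spdef, Creb3l4, Insm1 and Neurog3 and the lowest for Hes1 and Nrarp.

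Of 39 measured Notch pathway genes 7 were higher and 10 lower, shares of 17.9% and 25.6% that lie near the background of all genes, with a median of -0.04. The count of higher genes was 4 without stem cell array 2, and 11 were higher and 8 lower under cyclic loess. The 2 targets described here were lower. Hes1, the repressor of Atoh1, read 7.70 and 6.72 in DBZ crypts and 9.83 and 9.79 in stem cells and fell by 2.60 ± 0.33, 6.07-fold (adjusted p = 4.3e-04). Nrarp, a target that feeds back on Notch and was chosen after its values had been seen, read 7.63 and 7.45 in DBZ crypts and 9.81 and 9.48 in stem cells and fell by 2.11 ± 0.22 (adjusted p = 1.8e-04). For neither did the groups overlap. Both were also lower in DBZ crypts than in Rbpj-deleted crypts, Hes1 by -1.16 ± 0.33 (adjusted p = 0.0446) and Nrarp by -1.49 ± 0.22 (adjusted p = 0.00583), where a negative value means lower in DBZ crypts.

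The receptors Notch1 and Notch2 fell, by 2.20 ± 0.24 (adjusted p = 2.3e-04) and 2.20 ± 0.22 (adjusted p = 1.4e-04). Notch1 read 8.55 and 8.36 in DBZ crypts and 10.67 and 10.63 in stem cells, and Ent-Pro, at 10.26 and 10.22, lay close to the stem cells. Dll1, Dll3 and Dll4, ligands of the Delta family, were higher. Dll4 read 8.56 and 8.86 in DBZ crypts and 6.07 and 6.31 in stem cells and rose by 2.52 ± 0.16 (adjusted p = 2.2e-05). Dll1, the ligand that secretory progenitors present to their neighbours, read 11.46 and 11.43 in DBZ crypts and 9.66 and 9.67 in stem cells and rose by 1.78 ± 0.31 (adjusted p = 0.00235; chosen after its values had been seen). Dll3, a Delta protein that is not thought to activate Notch, was near background in the stem cells and read 6.09 and 7.87 in DBZ crypts, at least 4.55-fold higher (adjusted p = 0.00477), with 1 DBZ array well above the other. Rbpj read 8.26 and 8.31 in DBZ crypts and 8.15 and 8.22 in stem cells and was not called (adjusted p = 0.557); in the Rbpj-deleted crypts it read 6.74 and 6.62. The 300 bases around each annotated start were searched on both strands for the Rbpj motif TGGGAA, which lies in 25.6% of all promoters of that length. It was not found for Atoh1, Dll1, Dll3, Dll4, Notch1, Notch2 or Nrarp. Among the named Notch pathway genes and secretory regulators it was found for Rbpj, Spdef and Xbp1. Hes1 has no promoter in the RefSeq set used here and was not searched. The E-box CANNTG, read by factors of the Atoh1 class, lies in 72.3% of all these promoters.

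Products of goblet, Paneth, enteroendocrine and tuft cells were each higher in part. Of 22 measured goblet genes 17 were higher and 0 lower, with a median of 2.59. Ccl9, a chemokine, read 13.38 and 13.64 in DBZ crypts and 8.55 and 9.26 in stem cells and rose by 4.60 ± 0.31, 24.3-fold (adjusted p = 2.5e-05). Clca1, a protease secreted into mucus, read 12.93 and 13.49 in DBZ crypts and 8.98 and 8.84 in stem cells and rose by 4.30 ± 0.25 (adjusted p = 1.5e-05). In both genes the groups lay about 4 log2 units apart, and Ent-Pro lay below the stem cells, at 5.51 and 5.12 for Ccl9 and 3.94 and 4.20 for Clca1. Guca2a, the hormone guanylin, rose by 4.08 ± 0.64 (adjusted p = 0.00128) and Gcnt3, an enzyme that branches mucin sugars, by 3.69 ± 0.43 (adjusted p = 2.9e-04). Gcnt3 also read 7.91 and 8.48 in Ent-Pro and 9.67 and 8.07 in villi. For Gcnt3, DBZ crypts minus Ent-Pro was not called at 1.42 ± 0.43 (adjusted p = 0.0510). Agr2, a disulfide isomerase needed to fold mucin, rose by 2.85 ± 0.42 (adjusted p = 0.00100), and Tff3, the trefoil peptide of goblet cells, already at 13.35 and 13.35 in the stem cells, rose by 1.48 ± 0.16 (adjusted p = 2.2e-04). Agr2 and Tff3, like Reg4 and Mmp7 below, were chosen after their values had been seen. Against the Rbpj-deleted crypts, 3 of the 22 goblet genes were higher and 2 lower in DBZ crypts (9.34% and 7.08% of all genes), and Clca1 differed by 0.03 ± 0.25 (adjusted p = 0.945).

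Of 17 measured Paneth genes 9 were higher and 0 lower, with a median of 1.62. Pla2g2a, an antibacterial phospholipase, read 11.32 and 11.95 in DBZ crypts and 6.96 and 7.93 in stem cells and rose by 4.19 ± 0.42 (adjusted p = 1.5e-04). Ang, an angiogenin ribonuclease, read 11.56 and 11.99 in DBZ crypts and 7.59 and 7.64 in stem cells and rose by 4.15 ± 0.19 (adjusted p = 6.1e-06). Guca2b, uroguanylin, rose by 3.71 ± 0.35 (adjusted p = 1.1e-04) and Reg4, a secreted lectin, by 3.18 ± 0.48 (adjusted p = 0.00102). Guca2b also read 12.60 and 11.44 in Ent-Pro and 13.21 and 13.43 in villi, and DBZ crypts minus Ent-Pro was not called at 1.06 ± 0.35 (adjusted p = 0.0664). For these 4 genes the DBZ arrays were above both stem cell arrays. Mmp7, the protease that activates defensins, rose by 2.82 ± 0.77 (adjusted p = 0.0192), a call that was lost without either DBZ array or either stem cell array (adjusted p up to 0.113). Lyz1, lysozyme, read 15.01 and 15.03 in DBZ crypts and 14.57 and 14.89 in stem cells. It was at the top of the scale in the DBZ crypts, so a difference between the groups was not measurable there (adjusted p = 0.791). The stem cell arrays thus held lysozyme message at 14.57 and 14.89, against 10.31 and 11.15 in Ent-Pro, and the part of Paneth cells in the sorted fraction was not tested.

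Of 31 measured enteroendocrine genes 17 were higher and 1 lower (0 lower without either DBZ array or stem cell array 2), with a median of 1.08, and 11 were higher without stem cell array 1. Nts, neurotensin, was near background in the stem cells and read 7.93 and 7.25 in DBZ crypts, at least 6.98-fold higher (adjusted p = 0.00484). Sct, secretin, read 10.92 and 10.86 in DBZ crypts and 8.39 and 8.50 in stem cells and rose by 2.45 ± 0.46 (adjusted p = 0.00324). Chga, chromogranin A of hormone granules, read 10.55 and 10.29 in DBZ crypts and 8.45 and 8.996 in stem cells and rose by 1.70 ± 0.23 (adjusted p = 5.9e-04). In Sct and Chga both DBZ arrays lay above both stem cell arrays. Cpe, a hormone-trimming carboxypeptidase, rose by 2.30 ± 0.35 by its brightest probe set (adjusted p = 0.00119) and differed by -0.16 by its dimmest.

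Of 16 measured tuft cell genes 11 were higher and 1 lower, with a median of 1.63. These calls were fragile: 3 were higher without DBZ array 1 or without stem cell array 2, and 5 without DBZ array 2 or without stem cell array 1. The 1 lower gene was not called when any 1 of these 4 arrays was left out. Hpgds, a prostaglandin synthase, was near background in the stem cells and read 7.51 and 7.30 in DBZ crypts, at least 6.11-fold higher (adjusted p = 0.00416). Alox5ap, of leukotriene synthesis, rose by 2.36 ± 0.73 (adjusted p = 0.0326), a call lost without any of the 4 arrays of the comparison (adjusted p up to 0.175). Dclk1, the usual marker of tuft cells, read 8.17 and 8.23 in DBZ crypts and 5.92 and 4.93 in stem cells and was not called (adjusted p = 0.0526; called without either Rbpj-deleted array; chosen after its values had been seen). Alox5ap, Spib and Vav1 are also expressed by leukocytes, whose markers moved with the comparison as given below.

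**Figure D4:**
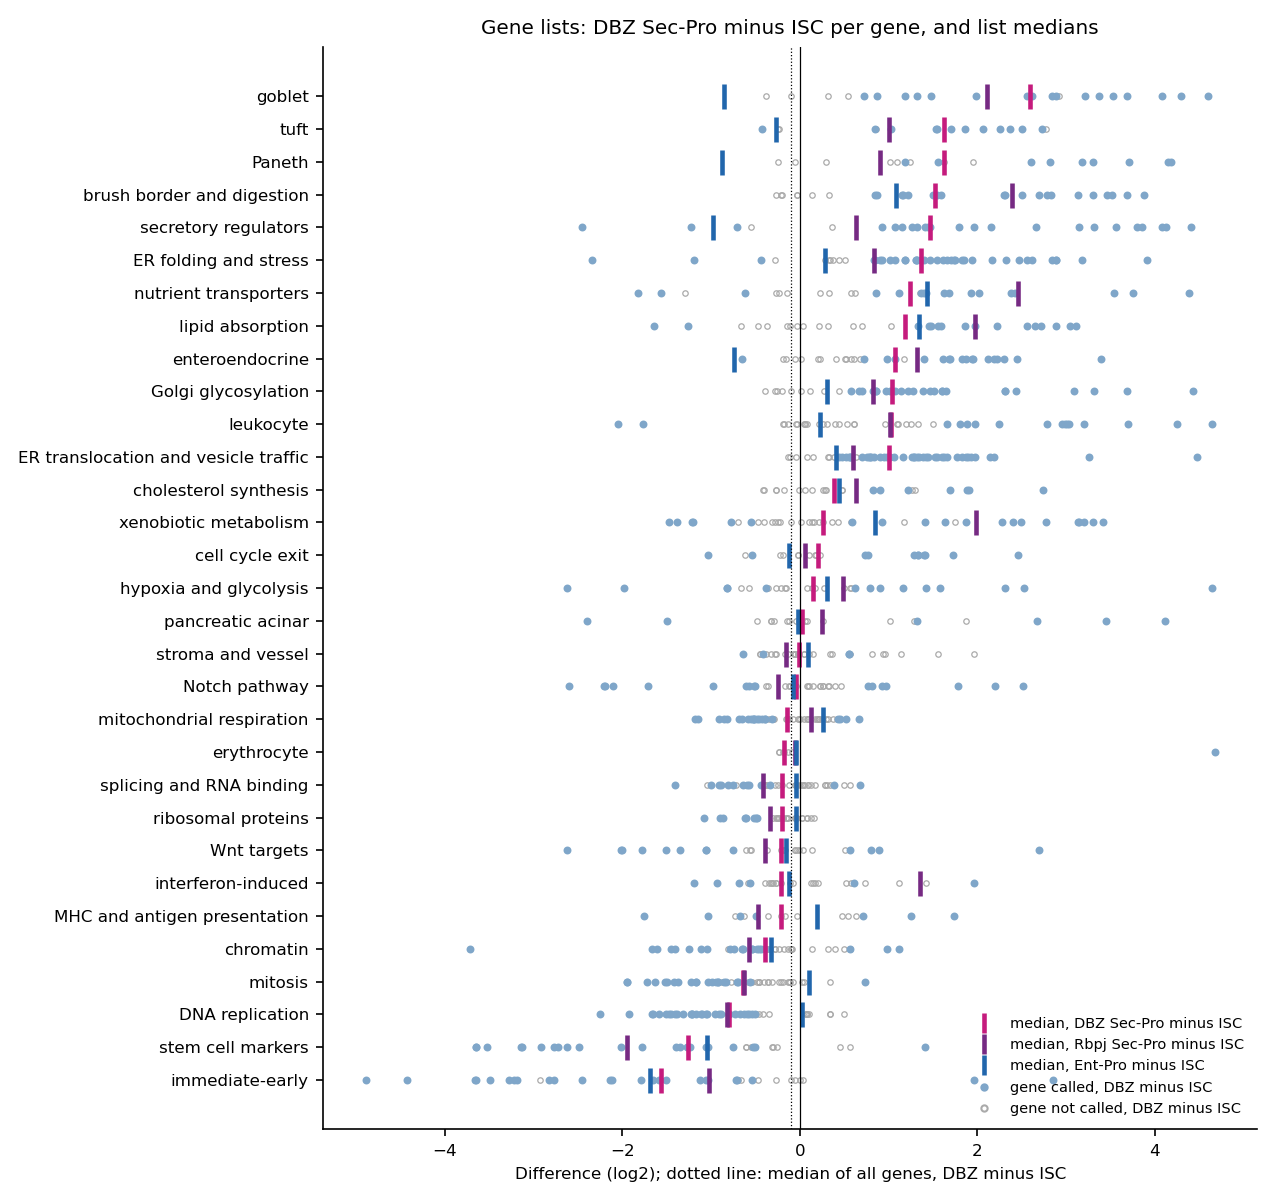
Difference between DBZ crypts and stem cells (log2) for every measured gene of the 31 lists, filled where called and open where not, with the list medians of DBZ crypts (magenta), Rbpj-deleted crypts (purple) and Ent-Pro (blue), each minus stem cells; the dotted line marks the median of all genes, -0.09. Goblet genes have the highest DBZ median, 2.59, and immediate-early genes the lowest, -1.56; for replication the DBZ and Rbpj medians lie at -0.79 and -0.82 and the Ent-Pro median at 0.03.

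Most measured genes that fold, sort and glycosylate secreted proteins rose. Of 43 genes for folding and stress in the endoplasmic reticulum 33 were higher and 3 lower, with a median of 1.36. Of 53 genes for entry into the reticulum and vesicle traffic 42 were higher and 0 lower (median 1.00), and of 34 genes for glycosylation in the Golgi 25 were higher and 0 lower (median 1.04). Without each of the 10 arrays in turn these counts of higher genes ranged from 32 to 35, 37 to 42 and 19 to 26. Selenom, a thioredoxin-like selenoprotein of the reticulum, read 12.97 and 13.00 in DBZ crypts and 9.16 and 8.98 in stem cells and rose by 3.92 ± 0.17, 15.1-fold (adjusted p = 5.0e-06). Pdia5, a disulfide isomerase, read 12.05 and 12.11 in DBZ crypts and 8.80 and 9.002 in stem cells and rose by 3.18 ± 0.17 (adjusted p = 1.5e-05). In both genes the 2 arrays of a group lay within 0.3 of each other and the groups were far apart. Sdf2l1, which partners the chaperone BiP, rose by 2.89 ± 0.15 (adjusted p = 1.2e-05) and Fkbp11, a prolyl isomerase, by 2.89 ± 0.30 (adjusted p = 1.7e-04; 0.04 by its dimmest probe set). Ern2, the stress sensor of mucus-secreting epithelia, rose by 1.65 ± 0.26 (adjusted p = 0.00138; chosen after its values had been seen).

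The folding list held 3 genes that fell. Ppp1r15a, also called Gadd34, which restores translation during stress, read 7.23 and 7.14 in DBZ crypts and 9.39 and 9.66 in stem cells and fell by 2.34 ± 0.15 (adjusted p = 2.5e-05). Ddit3, also called Chop, a factor of prolonged stress, read 7.27 and 7.60 in DBZ crypts and 8.28 and 8.98 in stem cells and fell by 1.19 ± 0.27 (adjusted p = 0.00848), a call lost without DBZ array 1 or stem cell array 2 (adjusted p up to 0.0678). Atf4, the factor upstream of both, fell by 0.44. Without DBZ array 1 or stem cell array 2 the list had 1 lower gene. These 3 genes were named after their values had been seen, and in each the stem cells were the higher group.

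Among traffic genes, Sec24d, a subunit of the coat that carries cargo out of the reticulum, read 11.14 and 11.14 in DBZ crypts and 6.67 and 6.65 in stem cells and rose by 4.48 ± 0.15 (adjusted p = 2.0e-06). Its partner Sec23a rose by 2.15 ± 0.24 (adjusted p = 2.3e-04) and Kdelr3, which returns resident proteins to the reticulum, by 3.26 ± 0.31 (adjusted p = 1.2e-04). Among Golgi enzymes St3gal4, a sialyltransferase, rose by 4.44 ± 0.27 (adjusted p = 1.9e-05) and Galnt7, which extends mucin-type chains, by 3.09 ± 0.19 (adjusted p = 2.0e-05). C1galt1c1, the chaperone of the enzyme that builds the mucin core, rose by 3.31 ± 0.15 by its brightest probe set (adjusted p = 6.0e-06) and differed by -0.25 by its dimmest. Against the same stem cells, Ent-Pro also had 28 of the 53 traffic genes higher and 2 lower, 11 of the 34 Golgi genes higher and 1 lower, and 12 of the 43 folding genes higher and 7 lower. Of all genes, 12.1% were higher and 13.5% lower in that comparison. In Ent-Pro Sec24d read 10.40 and 10.48 and St3gal4 11.85 and 11.67. For St3gal4 DBZ crypts minus Ent-Pro was -0.23 ± 0.27 (adjusted p = 0.604). Selenom, by contrast, read 5.30 and 5.30 in Ent-Pro and Kdelr3 5.49 and 4.98, and DBZ crypts exceeded them by 7.68 ± 0.17 and 3.49 ± 0.31 (adjusted p = 5.8e-08 and 1.4e-04). Of the folding list, 29 genes were higher and 0 lower in DBZ crypts than in Ent-Pro, and 14 were higher and 1 lower than in Rbpj-deleted crypts. For the traffic list these counts were 35 and 1 against Ent-Pro and 15 and 2 against Rbpj deletion, and for the Golgi list 15 and 0 and 8 and 2. Of all genes, 8.84% were higher and 9.77% lower against Ent-Pro, and 9.34% and 7.08% against Rbpj deletion.

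Promoters of the folding genes were searched for the endoplasmic reticulum stress element, CCAAT, 9 bases of any kind and CCACG, on either strand, which Atf6 reads together with the factor NF-Y. It was found in 10 of the 37 list members that have a promoter in the RefSeq table and in 39 of all 32851 promoters of the same 300 bases, 0.119%. The list was assembled from known stress response genes, so its share is not independent of the element. Of the 10, 8 were higher in DBZ crypts, and Derl3 and Syvn1 were not called. In the whole folding list 33 of 43 genes were higher (76.7%), against 15.9% of all genes, so the members with the element lay near the list's own share. The stretches below, from RefSeq on GRCm38.p6 and written 5′ to 3′ on the gene's strand, show the element in capitals in 4 genes that rose and in Syvn1, which was not called (difference 0.51, adjusted p = 0.126). A match is a description of the letters and not evidence of binding.

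Hspa5, chr2:34772005-34772063, plus strand, element 65 bases before the start: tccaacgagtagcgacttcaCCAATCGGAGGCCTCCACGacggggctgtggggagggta

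Pdia6, chr12:17266471-17266529, plus strand, element 98 bases before the start: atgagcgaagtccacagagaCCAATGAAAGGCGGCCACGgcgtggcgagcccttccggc

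Creld2, chr15:88819500-88819558, plus strand, element reversed, 126 bases before the start: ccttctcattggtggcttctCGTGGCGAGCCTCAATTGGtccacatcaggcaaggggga

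Calr, chr8:84847055-84847113, minus strand, element reversed, 162 bases before the start: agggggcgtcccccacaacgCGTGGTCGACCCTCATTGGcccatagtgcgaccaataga

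Syvn1, chr19:6046512-6046570, plus strand, element 44 bases before the start: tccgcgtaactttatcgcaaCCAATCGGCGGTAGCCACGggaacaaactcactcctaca

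Hspa5, the chaperone BiP, read 13.73 and 14.12 in DBZ crypts and 12.96 and 13.03 in stem cells and rose by 0.93 ± 0.16 (adjusted p = 0.00192). Pdia6, a disulfide isomerase, read 12.66 and 13.07 in DBZ crypts and 10.31 and 10.30 in stem cells and rose by 2.56 ± 0.14 (adjusted p = 1.5e-05; 0.22 by its dimmest probe set). Creld2 rose by 1.62 ± 0.22 (adjusted p = 6.3e-04) and Calr, calreticulin, by 0.90 ± 0.17 (adjusted p = 0.00298). The groups did not overlap for any of the 4 genes. These 4 were chosen after their values had been seen.

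Of 30 measured stem cell markers 21 were lower and 1 higher (3 higher without either ENT array), with a median of -1.25. Lgr5, by whose reporter the stem cells were sorted, read 8.80 and 8.37 in DBZ crypts and 11.36 and 11.06 in stem cells and fell by 2.63 ± 0.61, 6.17-fold (adjusted p = 0.00896). Since the sort used this gene's own reporter, its direction was set by the preparation. The call was lost without DBZ array 2 or stem cell array 1 (adjusted p up to 0.0573), and the 2 arrays of the Rbpj-deleted group, which enter the estimate of spread, read 6.31 and 8.61. Ascl2, a Wnt-controlled factor of stem cell fate, read 8.47 and 8.16 in DBZ crypts and 10.33 and 10.32 in stem cells and fell by 2.01 ± 0.41 (adjusted p = 0.00474). By its dimmest probe set Ascl2 differed by -1.29 and was not called (adjusted p = 0.0975). Fstl1, a secreted glycoprotein, read 6.07 and 5.75 in DBZ crypts and 9.78 and 9.32 in stem cells and fell by 3.64 ± 0.34, 12.5-fold (adjusted p = 1.1e-04). Slc14a1, a urea carrier, read 7.07 and 5.45 in DBZ crypts and 9.66 and 9.89 in stem cells and fell by 3.52 ± 0.49 (adjusted p = 7.2e-04). Igfbp4, a binding protein of insulin-like growth factors chosen after its values had been seen, fell by 3.13 ± 0.24 (adjusted p = 4.7e-05). In each of these the stem cells were above both DBZ arrays. Smoc2 read 11.01 and 11.04 in DBZ crypts and 11.78 and 11.49 in stem cells and was not called (adjusted p = 0.319; called without either Rbpj-deleted array). The member that rose was Hopx, a marker given to slow-cycling crypt cells, by 1.41 ± 0.15 (adjusted p = 1.7e-04, and 0.42 by its dimmest probe set). Hopx was chosen after its values had been seen. Against Ent-Pro, DBZ crypts had 5 of the 30 higher and 8 lower (8.84% and 9.77% of all genes), and Lgr5 differed by 0.85 ± 0.61 (adjusted p = 0.381).

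Of 27 Wnt targets and components 9 were lower (33.3%, against 20.3% of all genes) and 4 higher (14.8%, against 15.9%), with a median of -0.21. Apart from Lgr5 and Ascl2, Fzd7, a Wnt receptor of stem cells, fell by 2.00 ± 0.15 by its brightest probe set (adjusted p = 5.0e-05). By its dimmest probe set Fzd7 differed by -0.36 and was not called (adjusted p = 0.0944). Wnt3, the ligand that Paneth cells supply to stem cells, was near background in the stem cells, read 7.14 and 6.85 in DBZ crypts and was at least 4.60-fold higher (adjusted p = 1.5e-05). Wnt3 was also higher in DBZ crypts than in Rbpj-deleted crypts, by 1.54 ± 0.16 (adjusted p = 0.00146).

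Many genes of the dividing cell were lower in DBZ crypts. Of 46 measured DNA replication genes 31 were lower and 0 higher, with a median of -0.79, and of 46 mitosis genes 21 were lower and 1 higher (median -0.64), with 13 lower without stem cell array 1. Pold1, the catalytic subunit of DNA polymerase delta, read 8.91 and 8.92 in DBZ crypts and 11.13 and 11.19 in stem cells and fell by 2.24 ± 0.24, 4.74-fold (adjusted p = 1.9e-04). Pole, of polymerase epsilon, fell by 1.93 ± 0.31 (adjusted p = 0.00136) and Chaf1b, which loads histones behind the fork, by 1.65 ± 0.18 (adjusted p = 2.0e-04). Cenpe, a kinetochore motor, read 7.55 and 7.93 in DBZ crypts and 9.33 and 10.04 in stem cells and fell by 1.95 ± 0.30 (adjusted p = 0.00115). In Pold1 and Cenpe both DBZ arrays lay below both stem cell arrays and well above the absent control. Some central genes did not move detectably: Pcna, the sliding clamp, read 12.55 and 12.29 in DBZ crypts and 12.33 and 12.34 in stem cells (adjusted p = 0.759), and Top2a, a topoisomerase of dividing cells, 10.82 and 11.14 in DBZ crypts and 11.15 and 10.75 in stem cells (adjusted p = 0.956), both chosen after their values had been seen. Mki67 fell by 1.17 ± 0.32 (adjusted p = 0.0199), lost without DBZ array 1 or either stem cell array (adjusted p up to 0.124). Ent-Pro against stem cells had 8 replication genes higher and 6 lower (12.1% and 13.5% of all genes), and DBZ crypts against Ent-Pro had 1 higher and 36 lower (8.84% and 9.77%). The 3′ to 5′ difference of Actb was 0.82 and 0.85 in Ent-Pro, and its part in these counts was not tested. Rbpj-deleted crypts had 29 lower and 0 higher against stem cells (29.4% and 17.7% of all genes), and DBZ crypts differed from them in 1 higher and 2 lower genes (9.34% and 7.08%).

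Of 20 genes of cell cycle exit 9 were higher, 2 lower and 9 not called (1 lower without DBZ array 1 or stem cell array 2), with a median of 0.21. Cdkn2b, which encodes p15, read 9.18 and 9.08 in DBZ crypts and 6.73 and 6.60 in stem cells and rose by 2.46 ± 0.24 (adjusted p = 1.4e-04). Cdkn1c, which encodes p57, read 9.11 and 9.46 in DBZ crypts and 7.35 and 7.78 in stem cells and rose by 1.72 ± 0.27 (adjusted p = 0.00132). Cdkn1a, which encodes p21, rose by 1.41 ± 0.32 (adjusted p = 0.00822), lost without DBZ array 2 or stem cell array 2 (adjusted p up to 0.0535). The groups did not overlap in these genes. Cdkn2b was at 9.09 and 8.77 in Ent-Pro and did not differ detectably from DBZ crypts there (0.20 ± 0.24, adjusted p = 0.621), whereas Cdkn1c was lower in Ent-Pro, with DBZ crypts above it by 3.11 ± 0.27 (adjusted p = 1.4e-04).

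Of 42 measured chromatin genes 18 were lower and 3 higher, with a median of -0.39, and 11 were lower without DBZ array 1. H1f4, a linker histone, read 7.04 and 8.35 in stem cells and was near background in DBZ crypts at 3.87 and 4.09, at least 7.90-fold lower (adjusted p = 1.0e-04). It was near background in each of the 4 groups that were not sorted. Dnmt1, which copies DNA methylation, read 9.94 and 10.02 in DBZ crypts and 11.43 and 11.42 in stem cells and fell by 1.45 ± 0.17 (adjusted p = 3.3e-04; chosen after its values had been seen), and Uhrf1, which brings Dnmt1 to the fork, by 1.67 ± 0.27 (adjusted p = 0.00141). Dnmt3a, which sets new methylation, fell by 1.61 ± 0.24 by its brightest probe set (adjusted p = 9.9e-04) and differed by -0.12 by its dimmest. Against Ent-Pro, Dnmt1 and Uhrf1 differed by -1.14 and -1.29 in DBZ crypts (adjusted p = 0.00257 and 0.0112), and Dnmt3a differed by 0.00 (adjusted p = 0.999).

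Of 50 genes of mitochondrial respiration 18 were lower and 4 higher with a median of -0.14, of 31 ribosomal protein genes 8 were lower and 0 higher (median -0.20), and of 41 splicing genes 11 were lower and 2 higher (median -0.20). These shares lie between 25.8% and 36.0% lower against 20.3% of all genes. They depended on single arrays: without DBZ array 2 the respiration and ribosomal counts of lower genes were 6 and 4, without stem cell array 1 they were 7 and 5, and the splicing count was 4 without DBZ array 1 and 6 without either stem cell array. The 4 higher respiration genes became 0 without DBZ array 1 or stem cell array 2 and 1 without stem cell array 1. The 2 higher splicing genes became 0 without either DBZ array or stem cell array 2, and 1 without stem cell array 1 or either Ent-Pro array. Ndufs7, of complex I, read 11.87 and 11.87 in DBZ crypts and 12.94 and 13.10 in stem cells and fell by 1.15 ± 0.14 (adjusted p = 3.4e-04). Among genes of hypoxia and glycolysis 9 of 28 were higher and 5 lower, with 2 or 3 lower without either DBZ array or either stem cell array. Those 9 and 5 genes were 32.1% and 17.9% of that list, against 15.9% higher and 20.3% lower of all genes. Egln3, an oxygen sensor, read 9.23 and 9.49 in DBZ crypts and 4.83 and 4.59 in stem cells and rose by 4.65 ± 0.16, 25.1-fold (adjusted p = 2.0e-06, and 1.20 by its dimmest probe set). It also read 9.67 and 9.73 in Rbpj-deleted crypts, 7.88 and 8.08 in Ent-Pro and 12.27 and 11.98 in villi, so the stem cells were the lowest group. Car9, carbonic anhydrase IX, read 7.58 and 6.96 in DBZ crypts and 9.98 and 9.80 in stem cells and fell by 2.62 ± 0.19 (adjusted p = 3.6e-05). Both are known hypoxia targets, and they moved in opposite directions. Car9 was lower in DBZ crypts than in both other crypt groups, by -2.44 ± 0.19 against Rbpj deletion and -2.94 ± 0.19 against Ent-Pro (adjusted p = 6.0e-04 and 2.4e-05, negative meaning lower in DBZ crypts).

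Immediate-early genes, which cells switch on within minutes of a stimulus, had the lowest median of the 31 lists. Of 35 measured 23 were lower and 2 higher, with a median of -1.56. Fosb, a partner in the AP-1 factor, read 9.28 and 8.93 in stem cells and was near background in DBZ crypts at 4.33 and 4.11, at least 21.0-fold lower (adjusted p = 2.0e-06). Egr1, a zinc finger factor, read 9.42 and 8.81 in DBZ crypts and 13.35 and 13.73 in stem cells and fell by 4.42 ± 0.29, 21.4-fold (adjusted p = 2.5e-05). Jun read 9.70 and 8.75 in DBZ crypts and 12.91 and 12.83 in stem cells and fell by 3.65 ± 0.30 (adjusted p = 6.6e-05), Edn1, endothelin, by 3.65 ± 0.26 (adjusted p = 3.0e-05) and Egr2 by 3.49 ± 0.23 (adjusted p = 2.4e-05). For these genes the stem cells stood above all 8 other arrays. Fosb lay between 4.11 and 4.89 on those arrays, and Egr1 between 7.83 and 9.78. Fos, chosen after its values had been seen, fell by 2.82 ± 0.33 (adjusted p = 2.9e-04), from 13.03 and 12.81 in stem cells. It read 12.65 and 12.42 in villi and 11.85 and 11.34 in Rbpj-deleted crypts. The mean level of the list was 9.47 and 9.63 in stem cells, 8.73 and 8.56 in villi and 8.05 and 7.87 in DBZ crypts. It was 8.36 and 7.92 in Rbpj-deleted crypts and 7.52 and 7.91 in Ent-Pro. Ent-Pro against stem cells had 23 of the 35 lower and 1 higher (13.5% and 12.1% of all genes), and DBZ crypts against Ent-Pro 6 higher and 2 lower (8.84% and 9.77%). The sort and the cell type cannot be told apart here, since the stem cells are the sorted group. The 2 genes that rose were Dusp6, a phosphatase of the MAP kinase route, by 2.86 ± 0.56 (adjusted p = 0.00392), and Klf4, a factor of post-mitotic epithelium, by 1.96 ± 0.12 (adjusted p = 2.0e-05). Dusp6 was chosen after its values had been seen. Jun is also in the stem cell list, and 20 of the 30 stem cell genes fell apart from it.

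The single largest decrease was in Dmbt1, a scavenger receptor protein secreted onto mucosal surfaces. It read 8.37 and 8.18 in DBZ crypts and 13.51 and 13.41 in stem cells, a fall of 5.18 ± 0.54 or 36.2-fold (adjusted p = 1.7e-04). Dmbt1 was high in every group but the secretory ones, at 13.56 and 14.11 in Ent-Pro and 13.21 and 13.01 in villi, and intermediate and unequal, 10.12 and 12.25, in the Rbpj-deleted crypts. DBZ crypts were lower than Ent-Pro by -5.56 ± 0.54 (adjusted p = 2.5e-04) and than Rbpj-deleted crypts by -2.91 ± 0.54 (adjusted p = 0.0112). Nlrp6, an inflammasome sensor, was also lowest in the DBZ crypts, reading 8.21 and 7.89 in DBZ crypts and 11.56 and 11.50 in stem cells, 8.84 and 9.29 after Rbpj deletion and 10.21 and 10.45 in Ent-Pro. It fell by 3.48 ± 0.18 (adjusted p = 1.4e-05). Rbp7, a retinol-binding protein, fell by 3.50 ± 0.32 (adjusted p = 1.0e-04) and Ces1e, a carboxylesterase, by 3.54 ± 0.43 (adjusted p = 3.6e-04). Each of these 4 was lower in DBZ crypts than in Ent-Pro as well, and Ces1e differed from the Rbpj-deleted crypts by -1.20 (adjusted p = 0.0891).

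Many enterocyte genes were higher in DBZ crypts than in stem cells. Of 28 brush border and digestive genes 20 were higher and 0 lower (median 1.52), of 28 lipid absorption genes 14 were higher and 2 lower (4 lower without DBZ array 1; median 1.18), and of 26 nutrient transporters 14 were higher and 3 lower (median 1.24), with 9 higher without DBZ array 1 and 1 lower without either DBZ array or stem cell array 1. Krt20, a keratin of differentiated epithelium, read 13.00 and 12.19 in DBZ crypts and 8.50 and 8.93 in stem cells and rose by 3.88 ± 0.27, 14.7-fold (adjusted p = 3.0e-05). Slc15a1, the peptide carrier, read 10.11 and 9.20 in DBZ crypts and 5.47 and 5.06 in stem cells and rose by 4.39 ± 0.33 (adjusted p = 4.4e-05). Mep1b, a brush border protease, read 12.65 and 12.001 in DBZ crypts and 8.74 and 8.86 in stem cells and rose by 3.52 ± 0.26 (adjusted p = 4.3e-05). In all 3, DBZ array 1 read higher than DBZ array 2, and both lay far above the stem cells. Lct, lactase, rose by 3.46 ± 0.36 (adjusted p = 1.7e-04), Apoa1, of chylomicrons, by 2.88 ± 0.18 (adjusted p = 2.2e-05) and Fabp1, a fatty acid carrier, by 1.97 ± 0.12 (adjusted p = 2.0e-05). Against Ent-Pro, the crypts that make enterocytes, DBZ crypts did not differ detectably in Krt20 (-0.37 ± 0.27, adjusted p = 0.396), Slc15a1 (0.03 ± 0.33, adjusted p = 0.958) or Apoa1 (-0.03 ± 0.18, adjusted p = 0.935). Over the lists, 3 brush border genes were higher and 1 lower in DBZ crypts than in Ent-Pro, and 1 lipid gene was higher and 7 lower (8.84% of all genes were higher and 9.77% lower). Rbpj-deleted crypts lay higher still: DBZ crypts were lower than they in 6 brush border, 14 lipid and 12 transporter genes and higher in 0, 0 and 1 (7.08% of all genes were lower and 9.34% higher). In bulk RNA, more cells of a type and more message per cell cannot be told apart.

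Of 39 drug-metabolising genes 14 were higher (35.9%, against 15.9% of all genes) and 6 lower (15.4%, against 20.3%; 3 without DBZ array 2), with a median of 0.26. The increases were led by cytochromes, with Cyp2b10 higher by 3.42 ± 0.60 (adjusted p = 0.00229) and Cyp3a13 by 3.21 ± 0.30 (adjusted p = 1.1e-04). Cyp3a13 was nonetheless below the Rbpj-deleted crypts, by -1.84 ± 0.30 (adjusted p = 0.00754), and 22 of the 39 genes were lower and 0 higher in DBZ crypts than after Rbpj deletion (7.08% and 9.34% of all genes). Cholesterol synthesis had 7 of 22 higher and 0 lower, led by Msmo1, a sterol demethylase, with 2.74 ± 0.18 (adjusted p = 2.5e-05). Without DBZ array 2, 2 members of that list were lower. Sc5d and Fdps, called with 1.90 and 1.89 by their brightest probe sets, differed by -0.09 and -0.04 by their dimmest.

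Of 40 measured leukocyte genes 14 were higher in DBZ crypts, 2 lower and 24 not called, with a median of 1.03, and 4 were near background in the stem cells and 0 in the DBZ crypts. The summed level of the list (log2) was 13.96 and 14.48 in DBZ crypts, 12.66 and 13.01 in stem cells, 12.56 and 12.70 in Ent-Pro, and 14.84 and 13.19 in Rbpj-deleted crypts. Ptprc, the leukocyte marker CD45, was near background in stem cells, read 8.74 and 9.50 in DBZ crypts and was at least 20.2-fold higher (adjusted p = 3.7e-04). Gzma, granzyme A of intraepithelial lymphocytes, read 10.90 and 11.83 in DBZ crypts and 6.53 and 7.70 in stem cells and rose by 4.25 ± 0.65 (adjusted p = 0.00115). Kit, carried by mast cells and also by deep crypt secretory cells, rose by 3.70 ± 0.39 (adjusted p = 1.7e-04). The counts varied with the arrays, 5 higher without either stem cell array and 6 without DBZ array 2. Cd68 and Cd14, of macrophages, were lower, by -2.04 ± 0.38 and -1.77 ± 0.28 (adjusted p = 0.00310 and 0.00124; both chosen after their values had been seen). Of plasma cell genes, Igha, the IgA heavy chain, read 10.94 and 11.39 in DBZ crypts and 6.61 and 6.33 in stem cells and rose by 4.69 ± 0.46 (adjusted p = 1.3e-04). Jchain, which joins IgA, was near background in the stem cells and read 8.34 and 8.68 in DBZ crypts, at least 13.1-fold higher (adjusted p = 1.0e-04; chosen after its values had been seen). In Ent-Pro, Igha read 10.84 and 9.69 and Jchain 8.09 and 7.60. DBZ crypts minus Ent-Pro was not called for either gene, at 0.90 ± 0.46 and 0.66 ± 0.39 (adjusted p = 0.219 and 0.287). The part of leukocytes and plasma cells in the other increases was not tested. Stromal and vessel markers had 2 of 34 higher and 2 lower, none of these 4 by over 0.64, with a median of -0.01. The counts changed from array to array left out (0 to 7 higher and 0 to 3 lower), and the summed level was 10.80 and 11.20 in DBZ crypts against 10.48 and 10.64 in stem cells.

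**Figure D5:**
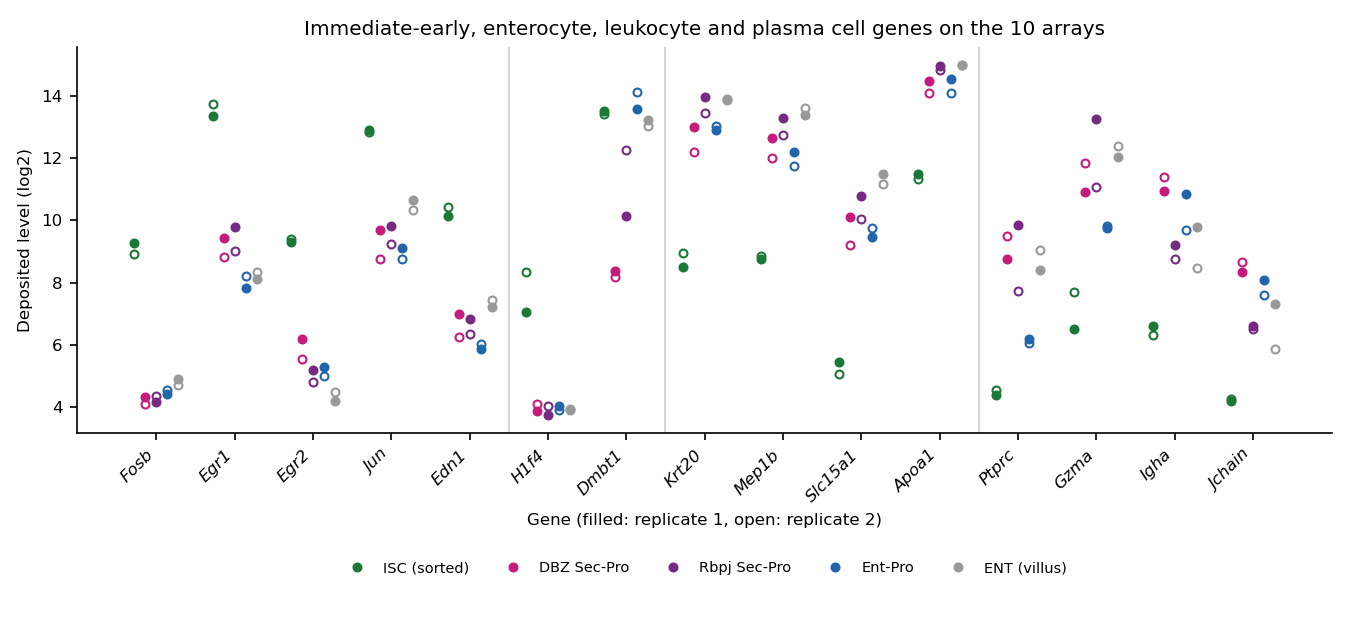
Deposited level (log2, vertical axis) of immediate-early genes, H1f4 and Dmbt1, enterocyte genes, and leukocyte and plasma cell genes on each of the 10 arrays, coloured by group, with replicate 1 filled and replicate 2 open. The sorted stem cells are highest for Fosb to H1f4 and lowest for Krt20 to Apoa1 and for Ptprc and Jchain, and Dmbt1 is lowest in the DBZ crypts.

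Several of the largest increases lay outside these groups. Pmp22, a membrane protein of growth-arrested cells and myelin, read 10.41 and 10.06 in DBZ crypts and 4.80 and 4.37 in stem cells and had the largest change of all called genes, 5.65 ± 0.33 or 50.1-fold (adjusted p = 1.6e-05). Cd55, which protects cells from complement, rose by 4.71 ± 0.23 (adjusted p = 1.0e-05, and 2.09 by its dimmest probe set) and S100a6, a calcium-binding protein, by 4.61 ± 0.56 (adjusted p = 3.6e-04). Pmp22 read 9.99 and 10.56 in Ent-Pro and S100a6 12.01 and 10.04 in Rbpj-deleted crypts, at or near the DBZ level, and the DBZ crypts differed from those groups by -0.04 ± 0.33 and -0.82 ± 0.56 (adjusted p = 0.95 and 0.339). Epb42, a protein of the red cell membrane, was near background in stem cells, Ent-Pro and villi and read 8.92 and 8.46 in DBZ crypts and 6.07 and 6.24 after Rbpj deletion. It was at least 14.9-fold higher than in stem cells (adjusted p = 2.0e-06) and exceeded the Rbpj-deleted crypts by 2.53 ± 0.17 (adjusted p = 3.2e-04). By its dimmest probe set Epb42 was higher than in stem cells by 1.78. The other 6 measured erythrocyte markers were not called, 3 of the 7 being near background in DBZ crypts. Acta1, skeletal muscle actin, read 11.85 and 11.76 in DBZ crypts and 7.10 and 7.21 in stem cells, 10.18 and 9.34 in Rbpj-deleted crypts and 6.41 and 6.35 in Ent-Pro, and rose by 4.66 ± 0.49 (adjusted p = 1.8e-04). Mbl2, a mannose-binding lectin, read 10.26 and 9.80 in DBZ crypts and 5.09 and 5.59 in stem cells and rose by 4.69 ± 0.36 (adjusted p = 5.0e-05), with DBZ crypts above Ent-Pro by 3.75 ± 0.36 (adjusted p = 2.5e-04). Rnase1, a secreted ribonuclease listed among pancreatic genes, read 14.12 and 14.30 in DBZ crypts and 10.15 and 10.04 in stem cells and rose by 4.11 ± 0.38 (adjusted p = 1.0e-04). Of the 20 measured pancreatic genes, which include it, 4 were higher and 2 lower (1 lower without DBZ array 2 or stem cell array 1). The median of that list was 0.02. Of all genes, 15.9% were higher and 20.3% lower in DBZ crypts than in stem cells, so the list as a whole showed no clear rise.

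Immune response genes were called at shares near or below those of all genes. Of 27 interferon-induced genes 2 were higher (7.41%, against 15.9%) and 4 lower (14.8%, against 20.3%), with a median of -0.21. The 2 higher became 1 without either DBZ array or stem cell array 1 and 4 without either Rbpj-deleted array. Of 17 genes of antigen presentation 3 were higher (17.6%) and 4 lower (23.5%). Both counts of lower genes were 1 or 2 without either DBZ array or either stem cell array. Rbpj-deleted crypts had 15 of the 27 interferon genes higher than stem cells (17.7% of all genes), and DBZ crypts were lower than Rbpj-deleted crypts in 15 and higher in 0 (7.08% and 9.34% of all genes). Usp18, induced by interferon, read 6.80 and 7.20 in DBZ crypts and 5.23 and 4.85 in stem cells and 10.63 and 9.58 after Rbpj deletion, a difference between the secretory groups of -3.11 ± 0.35 (adjusted p = 0.00223).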

How the data were processed

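Total RNA of 10 samples was measured on 1-colour Affymetrix 430A 2.0 arrays. Values deposited by the authors are on the log2 scale and cover 22690 probe sets; RMA and MAS5 are named in the submitters' processing notes, without version or role, and which of them gave the values is not given in the sources used here. The deposited log2 values ran from 2.90 to 15.18, with array medians from 6.83 to 6.98, and were used as they stand. The number of arrays limits the precision.

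Probe sets were named from the platform annotation: 20393 had 1 gene symbol, 691 several and 1606 none, and 20364 of the first were matched to the gene table by Entrez ID. Control probe sets (64) were left out, and each of the 12393 genes was read from its probe set with the highest mean. Group means of all 5 groups were fitted with limma 3.58.1 in R 4.3.3 (5 residual and 3.75 prior degrees of freedom), with Benjamini-Hochberg adjustment over all genes. The test against a 2-fold change was limma's treat. An exact permutation test of 2 against 2 arrays cannot go below p = 0.333. The fit was tested on simulated data: for DBZ crypts against stem cells it recovered 87.0% of genes changed by 1 (log2) and 98.0% of those changed by 2, with 13 unchanged genes called. The simulated DBZ arrays had the stem cell means plus the known changes, with independent normal noise of each gene's fitted spread. They held no difference in sorting or RNA quality, so the simulation cannot show how these bear on the calls.

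Samples were grouped by their titles. Named genes were the 12 largest called changes in each direction, up to 4 called members per list with the largest change, and genes listed by name; others are marked where they appear. The members and the 31 lists (938 of 1101 genes measured) were chosen with earlier results of these data known, and the bounds for background and for the top of the scale were set after the values had been seen. The alternatives were array centring, cyclic loess, fits on the 2 groups alone, a filter on dim genes, other probe sets, the control difference as a covariate, a replicate block, trended and robust variances, the 2-fold test and leaving out each array in turn. Python 3.11.15, pandas 2.3.3 and matplotlib 3.10.9 made the tables and figures.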

Additional observations from a re-analysis of the deposited data

How the results depend on the processing

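With the control difference between 3′ and 5′ probe sets as a covariate, the comparison of DBZ crypts with stem cells gave 0 higher, 0 lower and 0 called genes by limma, with 890 at an unadjusted p below 0.05, and DBZ crypts against Rbpj-deleted crypts gave 404. Against a 2-fold change the counts were 315 higher, 147 lower and 462 in all, 19 against Rbpj deletion and 213 against Ent-Pro. DBZ crypts against Rbpj-deleted crypts gave 97 genes from those 2 groups' arrays alone and 1167 among genes above the median level. Leaving out each array in turn gave 1322 to 2235 higher, 1748 to 2795 lower and 3075 to 5030 called genes against stem cells. Leaving them out likewise gave 363 to 2742 called genes against Rbpj deletion and 1045 to 2856 against Ent-Pro. The other alternatives kept the counts against stem cells within 1.5 times. The replicate numbers did not deviate together between DBZ crypts and stem cells (correlation 0.01), and with replicate as a block 4260 genes were called against stem cells, 1713 against Rbpj deletion and 2099 against Ent-Pro; 3 of the 169 called named genes lost their call.

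Under the covariate 19 of the 169 called named genes took the opposite sign: Cubn -0.18, Cyp4f14 -0.46, Ddit3 0.12, Dnmt3a 0.70, H1f2 -0.52, Incenp 0.0034, Mki67 0.44, Ndufa2 0.52, Nts -0.15, Postn -0.90, Rps25 0.94, Rpsa 0.042, Sec23a -0.42, Slc2a2 -0.53, Slc7a9 -0.27, Son 0.065, Tek -0.37, Thbs1 -0.9965 and Uhrf1 0.35. By the dimmest probe set 9 did: C1galt1c1 -0.25, Clk4 0.21, Cpe -0.16, Ero1b -0.30, Fdps -0.041, H1f2 -0.21, Pfkfb3 -0.35, Sc5d -0.091 and Son 0.33. Son was 0.29 by the mean of the probe sets. H1f2 and Ero1b were chosen after their values had been seen. The cause was not tested. Array centring and cyclic loess each left 167 of the 169 calls, and leaving out 1 array left between 147 and 169.

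Signal over background limits the rest: 1705 genes were near background in both groups, and 52 called genes were near background in the stem cells and 58 in the DBZ crypts.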
